A study of Mus musculus with 14 samples.

Results

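The 40 genes described here code for collagens, other structural proteins of the extracellular matrix, and a few proteins that mark or serve the cells that make it. They were taken from a fixed list of gene symbols, matched to probes by RefSeq accession, and their values played no part in the matching. The list itself was chosen with earlier results of these data known, so counts over it only describe the list. All 40 were measured, out of 30579 genes that passed a filter on dim signal. The list is covered by 61 probes, of which 59 cleared the background filter (3 arrays or more of 14). By role the list was divided into 7 groups: fibrillar collagens (5 genes), basement membrane (8), beaded-filament and fibril-associated collagens (4), elastic fibre (10), adhesive and matricellular glycoproteins (6), proteoglycans (4), and fibroblast surface proteins with the collagen chaperone (3).

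The study measured RNA of the lung of male C57BL/6N mice on 1-colour Agilent arrays (Cy3 label), 1 month after material had been given through the trachea. The control group received PBS, the vehicle, and has 5 arrays. The fibre groups received 200 µg per mouse of carbon fibre and have 3 arrays each: fibre before recycling (VCF), fibre after carbonization (CCF), and fibre after firing (RCF). Per the series' design text the arrays are independent biological samples, and all groups share the strain, the sex and the time point. In RNA of a whole lung, fewer cells of a type and less RNA per cell cannot be told apart.

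Collagens of the fibrillar kind form the tensile cables of the airway wall, the vessel wall and the pleura, while the basement membrane, a thin sheet of type IV collagen, laminin, nidogen and perlecan, underlies the alveolar epithelium and the capillary endothelium. Elastic fibres, a core of elastin on a scaffold of fibrillin microfibrils, give the lung its recoil. Fibroblasts make most of the interstitial matrix, and inhaled fibres and dusts are known for the matrix deposition they can leave in the lung.

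Promoter windows of 3 members are shown because the results below turn on them or set them side by side. They are Hspg2, the member that passed the test, Col3a1, which had the smallest p among members in VCF, and Col1a2. Col1a2 is another fibrillar collagen gene, and its window holds 3 of the 4 motifs searched. Each window is the 250 bases before the annotated start, read 5′ to 3′ on the gene's plus strand from RefSeq on GRCm38.p6. These are Hspg2 chr4:137468553-137468802, Col3a1 chr1:45311288-45311537 and Col1a2 chr6:4505368-4505617, all upstream of the first exon. Capitals mark matches, on either strand, to CCAAT (the CCAAT box), GGGCGG (the GC box), CAGACA (the CAGA element of SMAD binding) and TATAA (the TATAA box).
Hspg2: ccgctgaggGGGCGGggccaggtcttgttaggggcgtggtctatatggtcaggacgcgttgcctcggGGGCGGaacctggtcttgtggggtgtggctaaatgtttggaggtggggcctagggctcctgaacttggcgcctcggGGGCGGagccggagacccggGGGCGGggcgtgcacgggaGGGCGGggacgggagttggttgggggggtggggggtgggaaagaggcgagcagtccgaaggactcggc
Col3a1: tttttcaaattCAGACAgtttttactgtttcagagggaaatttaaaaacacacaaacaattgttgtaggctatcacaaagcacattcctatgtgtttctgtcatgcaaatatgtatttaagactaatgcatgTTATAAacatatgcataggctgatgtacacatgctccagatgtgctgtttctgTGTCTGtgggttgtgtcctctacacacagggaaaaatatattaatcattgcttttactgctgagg
Col1a2: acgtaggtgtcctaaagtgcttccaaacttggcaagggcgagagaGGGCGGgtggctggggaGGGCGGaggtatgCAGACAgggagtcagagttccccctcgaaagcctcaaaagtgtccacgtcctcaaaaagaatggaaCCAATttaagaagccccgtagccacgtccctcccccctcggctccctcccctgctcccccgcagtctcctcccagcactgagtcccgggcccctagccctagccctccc

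The Hspg2 window held 5 GC boxes and none of the other motifs. The Col3a1 window held CAGACA on both strands and TATAA on both strands, the latter pair overlapping in a single TTATAA. In Col1a2 there were 2 GC boxes, 1 CCAAT box and 1 CAGACA. RefSeq windows were found for 29 of the 40 members (37 windows). Of these 54.05% held a GC box, against 32.74% of all 32851 windows, and 35.14% held CAGACA against 17.13%. The CCAAT box was found in 29.73% against 33.85%, and TATAA in 16.22% against 22.78%. These are matches of letters only and carry no measurement of binding.

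Levels are given as log2 of the processed signal minus the 75th percentile of the same array, so that 0 is that percentile. Differences between groups are in log2 with the standard error of limma's fit to all 14 arrays (±), and "adjusted p" is limma's moderated test with Benjamini-Hochberg adjustment over all genes tested, with a threshold of 0.05. The arrays lie on 3 slides: the first carries 7 arrays of all 4 groups, the second 1 array each of control, VCF and CCF, and the third 2 control and 2 RCF arrays. The 75th percentile of intensity was 277 in VCF 1, 323 in CCF 2 and 375 in RCF 1, and between 891 and 2953 in the other arrays. Over all genes, arrays correlated at r between 0.937 and 0.991. Every value below is limited in precision by the small number of arrays. Each p sets a group difference against the spread of arrays within groups, pooled over the 4 groups.

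In VCF lungs the matrix genes lay mostly below vehicle, by small amounts, and in CCF and RCF lungs they did not. In VCF 33 of 40 members lay below the control mean, against 50.3% of all genes, with a median difference of −0.17 (all genes 0.00). In CCF 14 of 40 lay below, with a median of 0.17 (all genes 0.00), and in RCF 17 of 40, with a median of 0.10 (all genes 0.06). By their median, genes at large thus leaned above control in RCF too. The VCF arrays had member medians of −0.31, −0.23 and −0.23 relative to the control mean, the control arrays −0.10, 0.01, 0.14, −0.08 and 0.06. CCF arrays stood at 0.08, 0.07 and 0.25 and RCF arrays at 0.08, 0.02 and 0.10. Thus all 3 VCF arrays lay below all other 11 arrays. The 3 comparisons share the control arrays.

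**Figure D1:**
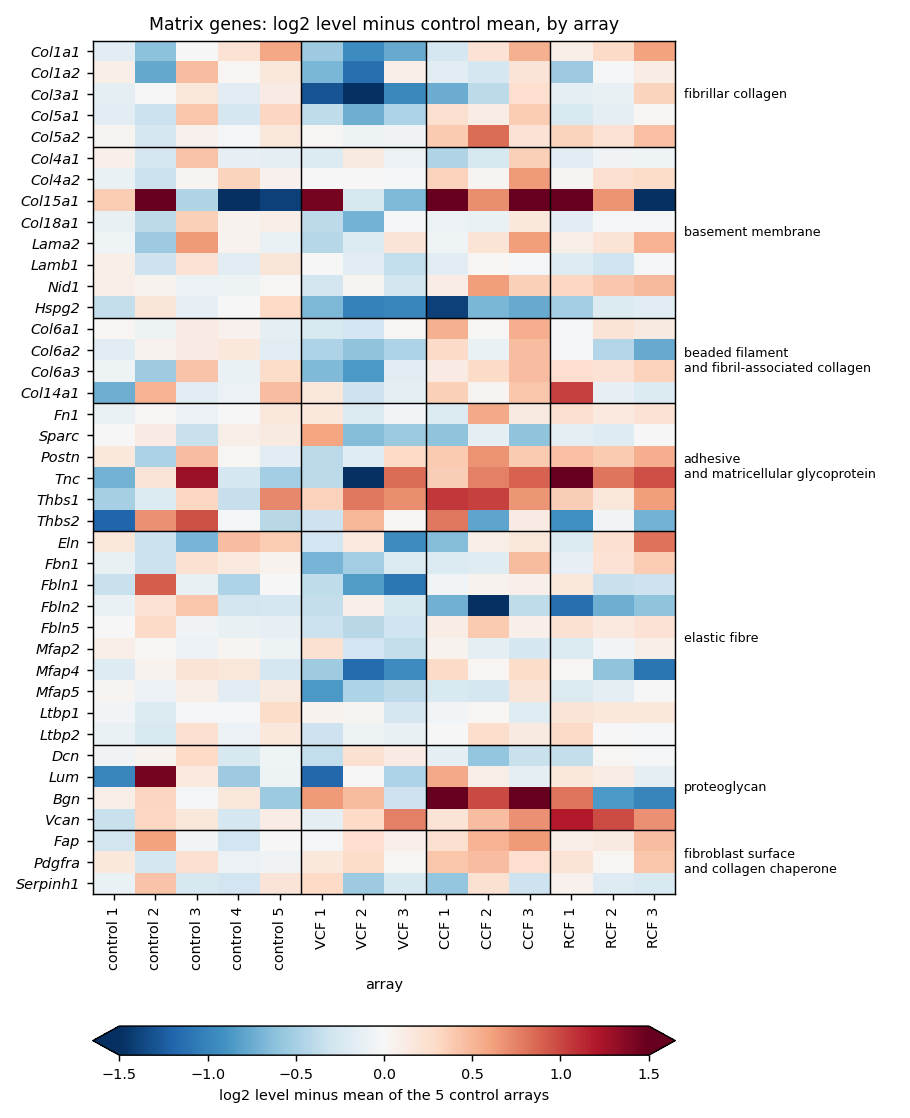
Heat map of the 40 matrix genes (rows, grouped by role) on the 14 arrays (columns). Colour is the log2 level minus the mean of the 5 control arrays, clipped at 1.5 either way; the VCF columns are mostly blue in the fibrillar collagen and elastic fibre rows, while Col15a1 and Tnc, which are dim, vary widely within groups.

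Against vehicle, 1 member passed the threshold: Hspg2, which fell in CCF and in the mean of the 3 fibres. In VCF 0 of 40 members passed, where 0.085% of all genes did. In CCF 1 of 40 passed (5.99% of all genes), with 0 higher (3.78%) and 1 lower (2.21%). In RCF 0 of 40 passed (0.154% of all genes). In the mean of the 3 fibres 1 of 40 passed (2.58%).

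At an unadjusted p under 0.05 in limma's test, VCF had 11 members lower (4.99% of all genes) and 1 higher (4.97%). In CCF 8 members were higher (12.9%) and 2 lower (10.8%), and in RCF 5 higher (8.78%) and 3 lower (4.15%). For the mean of the 3 fibres 4 were higher (11.5%) and 5 lower (8.05%). In VCF 7 members had all 3 arrays below all 5 control arrays (3.91% of all genes), namely Col3a1, Col5a1, Col6a2, Fbln5, Mfap4, Mfap5 and Hspg2, and 0 had all 3 above (3.46%). The members that stood above all controls in CCF numbered 4 (9.89%), Col5a2, Bgn, Pdgfra and Nid1, and those below numbered 2 (6.46%), Fbln2 and Hspg2. In RCF 3 stood above (7.62%), Col5a2, Vcan and Nid1, and 1 below (3.77%), Fbln2. The VCF count of 11 was also 11 without the 3 dim arrays (6.08% of all genes), and 4 without VCF 2 (3.94%).

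**Figure D2:**
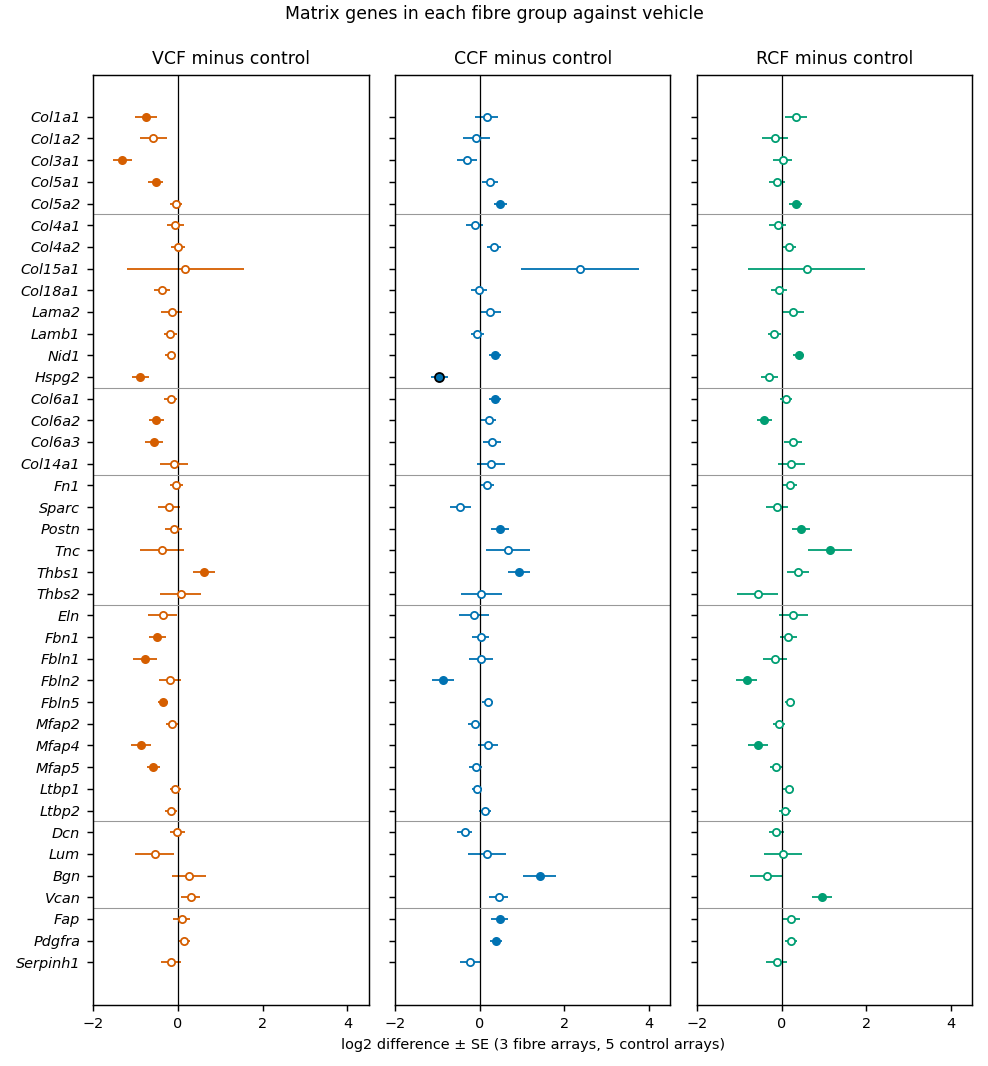
Log2 difference of each matrix gene from control, by fibre (n = 3 fibre and n = 5 control arrays), with the standard error of the fit. Filled points have an unadjusted p under 0.05 and the black-edged point, Hspg2 in CCF, an adjusted p under 0.05; in VCF all 5 fibrillar collagens and all 10 elastic fibre genes lie below 0.

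The fibrillar collagens lay lowest in VCF: 5 of 5 were below control, with a median difference of −0.57, against medians of 0.16 in CCF and 0.03 in RCF. Col3a1, the chain of type III collagen, a main collagen of the alveolar wall and of vessels, was at 3.81, 3.96, 4.11, 3.79 and 4.08 in the controls. It was at 2.65, 2.28 and 2.99 in VCF, at 3.20, 3.55 and 4.20 in CCF and at 3.80, 3.84 and 4.28 in RCF. All VCF arrays lay below all other arrays. The difference was −1.31 ± 0.23 in VCF (2.48-fold lower, adjusted p = 0.063), −0.30 ± 0.23 in CCF (adjusted p = 0.474) and 0.03 ± 0.23 in RCF (adjusted p = 0.984). The VCF difference missed the threshold here and passed it with the slide as a block (adjusted p = 0.0445 fixed, 0.0197 random), with the filter set to all 14 arrays (0.033) and with array weights (0.0132). When 1 array was left out in turn its adjusted p ran from 0.0514 to 0.254.

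Type I collagen, the main tensile collagen, has 2 chains, Col1a1 and Col1a2. Col1a1 was at 2.64, 2.19, 2.80, 3.02 and 3.38 in the controls and at 2.26, 1.87 and 2.05 in VCF. It was at 2.54, 3.02 and 3.34 in CCF and 2.90, 3.09 and 3.41 in RCF. VCF overlapped the controls through control 2, and lay below every CCF and RCF array. The differences were −0.75 ± 0.26 in VCF (adjusted p = 0.336), 0.16 ± 0.26 in CCF (0.776) and 0.33 ± 0.26 in RCF (0.661). A further Col1a1 probe gave −0.70, 0.17 and 0.45.

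Col1a2 spread more widely, from 4.18 to 5.41 in the controls (5.05, 4.18, 5.41, 4.97 and 5.11). Its VCF arrays were at 4.26, 3.81 and 5.04, its CCF arrays at 4.78, 4.68 and 5.14 and its RCF arrays at 4.40, 4.93 and 5.06. Every fibre group overlapped the controls. The difference in VCF was −0.57 ± 0.31 (adjusted p = 0.595; 95% interval −1.25 to 0.10), and in CCF and RCF −0.07 and −0.15.

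The type V chains, which start fibril assembly, did not move alike. Col5a1 was at 0.81, 0.46 and 0.73 in VCF, below all controls (0.88 to 1.61), with a difference of −0.52 ± 0.18 (adjusted p = 0.346). For Col5a2 the VCF difference was −0.04 ± 0.15, while CCF (−1.79, −1.34 and −1.96) and RCF (−1.84, −1.96 and −1.73) stood above all controls (−2.43 to −2.0). Its differences of 0.48 ± 0.15 in CCF and 0.33 ± 0.15 in RCF had adjusted p of 0.0762 and 0.375.

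Type VI collagen forms beaded filaments around cells, and type XIV decorates fibrils. All 4 genes of this group lay below control in VCF (median −0.34) and above it in CCF (median 0.28), while in RCF 3 of 4 lay above (median 0.17). Col6a2 was at −1.41, −1.55 and −1.40 in VCF, below every control array (−1.12 to −0.79), a difference of −0.51 ± 0.18 (adjusted p = 0.342). In RCF it differed by −0.41 ± 0.18 (adjusted p = 0.358). Col6a3 differed by −0.56 ± 0.22 in VCF (adjusted p = 0.401), with VCF 3 at 2.20 among the controls (1.83 to 2.79). For Col6a1 the differences were −0.17 ± 0.14 in VCF and 0.37 ± 0.14 in CCF (adjusted p = 0.15 in CCF), and for Col14a1 −0.09 ± 0.33 and 0.27 ± 0.33. A further Col6a3 probe, above background on 14 arrays, gave −0.72 in VCF, −1.90 in CCF and −0.82 in RCF, against −0.56, 0.29 and 0.27 for the probe used. No member of the group passed the threshold.

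The elastic fibre genes lay below control in VCF in 10 of 10 cases, with a median of −0.35, and in 5 of 10 cases in CCF and in RCF (medians −0.02 and 0.01). The 3 VCF arrays had group medians of −0.34, −0.35 and −0.33, and the controls ran from −0.07 to 0.03. No gene of the group passed the threshold in any fibre, and 5 had an unadjusted p under 0.05 in VCF. Mfap5, a microfibril-associated glycoprotein, was at 2.97, 2.84, 3.02, 2.76 and 3.07 in the controls and at 2.07, 2.46 and 2.54 in VCF. It was at 2.71, 2.67 and 3.13 in CCF and at 2.72, 2.80 and 2.92 in RCF. The VCF arrays lay below all others. The difference was −0.57 ± 0.15 in VCF (adjusted p = 0.193), −0.10 ± 0.15 in CCF and −0.12 ± 0.15 in RCF.

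Mfap4, which binds elastin and collagen, differed by −0.87 ± 0.23 in VCF (1.83-fold lower, adjusted p = 0.21), with arrays at 0.16, −0.47 and −0.25 against 0.44 to 0.89 in the controls. It also differed by −0.55 ± 0.23 in RCF (adjusted p = 0.339), where RCF 1 at 0.72 lay among the controls. Fbln5, needed to assemble elastin onto microfibrils, was at 2.78, 2.68 and 2.80 in VCF against 2.98 to 3.38 in the controls, a difference of −0.35 ± 0.12 (adjusted p = 0.353). It had the smallest spread of the 40 members, a pooled SD of 0.135. Fbln1, a fibulin of microfibrils and basement membranes, differed by −0.77 ± 0.28 and Fbn1, the fibrillin that builds the microfibril, by −0.48 ± 0.20 in VCF, with adjusted p of 0.37 and 0.458. A further Fbn1 probe gave −0.26 in VCF, 0.55 in CCF and 0.49 in RCF, where the probe used gave 0.03 and 0.16 in the last 2.

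Eln itself, the elastin gene, was at 0.10, −0.40, −0.77, 0.39 and 0.30 in the controls, at −0.36, 0.07 and −1.02 in VCF, at −0.73, 0.01 and 0.10 in CCF and at −0.29, 0.16 and 0.73 in RCF. The 4 groups overlapped. The difference was −0.36 ± 0.35 in VCF (adjusted p = 0.836, 95% interval −1.12 to 0.40), −0.13 ± 0.35 in CCF and 0.28 ± 0.35 in RCF. A further Eln probe, above background on 14 arrays, differed in sign, with 0.07 in VCF and 0.79 in CCF, and gave 0.28 in RCF.

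Fbln2, a fibulin found at elastic fibres and basement membranes, followed another order. It was at 0.06, 0.38, 0.57, −0.12 and −0.09 in the controls and at −0.20, 0.23 and −0.08 in VCF. It was at −0.56, −1.33 and −0.22 in CCF and at −0.97, −0.57 and −0.45 in RCF. All CCF and RCF arrays lay below all control and VCF arrays. The difference was −0.86 ± 0.25 in CCF (1.82-fold lower, adjusted p = 0.0663), −0.82 ± 0.25 in RCF (1.77-fold lower, adjusted p = 0.195) and −0.18 ± 0.25 in VCF (adjusted p = 0.914). In CCF it passed the threshold with the random slide block (adjusted p = 0.0418), the authors' values (0.048), the filter on all 14 arrays (0.0373) and array weights (0.0324). Without CCF 2 the CCF difference was −0.55. When 1 array was left out in turn the adjusted p of Fbln2 in CCF ran from 0.0572 to 0.241. The remaining elastic fibre genes Mfap2, Ltbp1 and Ltbp2, the last 2 of the latent TGF-beta binding protein family, differed by between −0.17 and 0.17 in every fibre group.

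Among the basement membrane genes 7 of 8 lay below control in VCF (median −0.16) and 4 of 8 in CCF and in RCF (medians 0.12 and 0.06). Hspg2 codes for perlecan, the large heparan sulfate proteoglycan that links laminin and collagen networks. Its values were 3.93, 4.47, 4.16, 4.29 and 4.59 in the controls and 3.62, 3.28 and 3.31 in VCF. They were 2.89, 3.60 and 3.54 in CCF and 3.78, 4.08 and 4.13 in RCF. VCF and CCF lay below every control and every RCF array, and RCF overlapped the controls.

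Hspg2 fell by 0.95 ± 0.20 on the log2 scale in CCF (1.93-fold, adjusted p = 0.0222), lower than every control in 3 of 3 arrays. In the mean of the 3 fibres it fell by 0.71 ± 0.15 (adjusted p = 0.0381). That call held in only 4 of 14 fits that left out 1 array (adjusted p up to 0.111), and with the mean of both probes the value was −0.26 (adjusted p = 0.446). In VCF the difference was −0.88 ± 0.20 (1.85-fold lower, adjusted p = 0.138) and in RCF −0.29 ± 0.20 (adjusted p = 0.6). The difference in CCF was −0.96 within the first slide and −0.63 within the second. The call in CCF was lost without control 4 (adjusted p = 0.0552), without CCF 1 (0.0768), without CCF 2 (0.0559) and without the 3 dim arrays together (0.0565). A further Hspg2 probe, well above background on only 6 arrays and on none of VCF, gave 1.01 in CCF, opposite in sign, and with the mean of both probes the CCF difference was 0.03 (adjusted p = 0.954).

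Col4a1 and Col4a2, the chains of the main type IV collagen, showed no shared shift. Col4a1 was at 3.20, 2.87, 3.54, 3.00 and 2.99 in the controls, at 2.91, 3.25 and 3.03 in VCF, at 2.67, 2.88 and 3.48 in CCF and at 2.96, 3.07 and 3.06 in RCF. All groups overlapped, with differences of −0.06, −0.11 and −0.09 (SE 0.20 each). Their 95% intervals ran from −0.49 to 0.37 in VCF and from −0.54 to 0.32 in CCF. Col4a2 differed by 0.00 ± 0.16 in VCF, 0.34 ± 0.16 in CCF (adjusted p = 0.231) and 0.19 ± 0.16 in RCF.

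Nid1, nidogen, which joins laminin to type IV collagen, was at 2.15, 2.10, 1.96, 1.97 and 2.07 in the controls and at 1.78, 2.09 and 1.78 in VCF. It was at 2.16, 2.67 and 2.40 in CCF and at 2.36, 2.46 and 2.53 in RCF. CCF and RCF lay above all control and VCF arrays, CCF 1 only just. The differences were 0.36 ± 0.13 in CCF (adjusted p = 0.127), 0.40 ± 0.13 in RCF (adjusted p = 0.222) and −0.17 ± 0.13 in VCF (adjusted p = 0.773). The laminin chains Lama2 and Lamb1 differed by between −0.18 and 0.27 across the fibres. A further Lamb1 probe, above background on 14 arrays, gave 0.57 in VCF, opposite in sign to the probe used, and another −0.07. Col18a1, the collagen from which endostatin is cut, differed by −0.37 ± 0.19 in VCF (adjusted p = 0.544).

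Col15a1, a collagen of the basement membrane zone, was above background on only 4 of 14 arrays, on none of VCF, 1 of control, 1 of CCF and 2 of RCF. Its values were −6.53, −3.62, −7.36, −8.73 and −8.31 in the controls, while VCF was at −5.47, −7.14 and −7.57, CCF at −2.04, −6.21 and −5.39 and RCF at −3.75, −6.24 and −8.96. The groups overlapped, and its pooled SD of 2.05 was the largest of the 40 members. The mean in CCF, which rests on CCF 1, was at least 2-fold above the background level that bounds VCF, and the fit's adjusted p for CCF against VCF was 0.591. Thbs2 (7 arrays above background, 0 of VCF) and Tnc (10 arrays) were dim as well.

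Of the adhesive and matricellular glycoproteins 5 of 6 lay above control in CCF (median 0.33), 4 of 6 in RCF (median 0.30) and 2 of 6 in VCF (median −0.07). Thbs1, thrombospondin 1, an activator of latent TGF-beta, was at 1.20, 1.49, 2.01, 1.36 and 2.42 in the controls. It was at 2.05, 2.49 and 2.39 in VCF, at 2.76, 2.73 and 2.36 in CCF and at 2.07, 1.87 and 2.32 in RCF. The controls spread over more than 1 log2 unit, and their range overlapped that of every fibre group. The difference was 0.92 ± 0.26 in CCF (1.89-fold higher, adjusted p = 0.0585), 0.61 ± 0.26 in VCF (0.466) and 0.39 ± 0.26 in RCF (0.592). In CCF it passed the threshold with the random slide block (adjusted p = 0.0395), the authors' values (0.0379), normexp (0.0402), the filter on all 14 arrays (0.0318), array weights (0.0323) and without control 5 (0.0319). When any other single array was left out it did not pass, with an adjusted p of up to 0.173. A further Thbs1 probe, above background on 14 arrays, gave −1.87 in CCF, −0.12 in VCF and −1.36 in RCF.

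Postn, periostin, a matricellular protein of fibroblasts, was at 3.49, 2.85, 3.79, 3.34 and 3.17 in the controls and at 2.92, 3.15 and 3.63 in VCF. It was at 3.72, 4.00 and 3.73 in CCF and at 3.79, 3.72 and 3.87 in RCF. CCF and RCF lay above 4 of the 5 controls and level with control 3. The differences were 0.49 ± 0.21 in CCF (adjusted p = 0.186), 0.46 ± 0.21 in RCF (0.381) and −0.10 ± 0.21 in VCF (0.949). The 2 further Postn probes gave 0.56 and 0.64 in CCF and 0.52 and 0.67 in RCF.

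Fn1, fibronectin, was at 4.31, 4.43, 4.32, 4.40 and 4.58 in the controls, at 4.57, 4.19 and 4.37 in VCF, at 4.21, 4.98 and 4.54 in CCF and at 4.64, 4.56 and 4.63 in RCF. The groups overlapped. Its differences were −0.03, 0.17 and 0.20 (SE 0.16 each), with a 95% interval from −0.38 to 0.32 in VCF and −0.15 to 0.56 in RCF. Sparc, osteonectin, which binds collagen, was at 7.44, 7.58, 7.11, 7.54 and 7.59 in the controls. It was at 8.05, 6.80 and 6.90 in VCF, at 6.84, 7.30 and 6.85 in CCF and at 7.31, 7.26 and 7.46 in RCF. VCF 1 was the highest of all arrays and the other VCF arrays among the lowest, so that the VCF difference was −0.20 ± 0.25 with all arrays, −0.60 without VCF 1 and 0.019 without VCF 2. In CCF it was −0.45 ± 0.25 (adjusted p = 0.314). Tnc, tenascin-C, a glycoprotein of tissue repair, differed by 1.15 ± 0.52 in RCF (adjusted p = 0.384), with RCF at −2.88, −3.74 and −3.58 and control 3 at −3.26 among them.

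Of the 4 proteoglycans 3 lay above control in CCF (median 0.31) and 2 in VCF and in RCF. Bgn, biglycan, a small leucine-rich proteoglycan, was at −1.87, −1.64, −1.98, −1.79 and −2.52 in the controls. It was at −1.32, −1.48 and −2.27 in VCF, at −0.35, −0.97 and −0.32 in CCF and at −1.15, −2.82 and −2.95 in RCF. CCF lay above all other arrays, while RCF 1 lay above and RCF 2 and 3 below every control. The difference was 1.41 ± 0.39 in CCF (2.66-fold higher, adjusted p = 0.0559), 0.27 ± 0.39 in VCF (0.916) and −0.35 ± 0.39 in RCF (0.793). In CCF it passed the threshold in 7 alternatives: without RCF 1 (adjusted p = 0.0175), without the 3 dim arrays (0.0338), with normexp (0.0458), the authors' values (0.0444), the filter on all 14 arrays (0.0306), the random slide block (0.0452) and array weights (0.0183). When other arrays were left out it ran up to 0.16.

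Vcan, versican, the large hyaluronan-binding proteoglycan, was at −3.40, −2.75, −2.89, −3.33 and −2.96 in the controls and at −3.21, −2.77 and −2.31 in VCF. It was at −2.86, −2.60 and −2.38 in CCF and at −1.87, −2.09 and −2.38 in RCF. RCF lay above all controls, and VCF and CCF overlapped them. The difference in RCF was 0.95 ± 0.23 (1.94-fold higher, adjusted p = 0.117), and it passed with the slide as a block (0.0416 fixed, 0.0387 random). When 1 array was left out in turn its adjusted p ran from 0.0927 to 0.321. With normexp correction the difference was 0.49 and with the mean of both probes 0.52. A further Vcan probe, above background on 14 arrays, gave 0.09 in RCF.

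Dcn, decorin, which limits the thickness of collagen fibrils, was at 4.89, 5.0, 5.24, 4.71 and 4.87 in the controls, at 4.57, 5.17 and 5.06 in VCF, at 4.80, 4.36 and 4.60 in CCF and at 4.59, 4.96 and 4.92 in RCF. It overlapped between control and every fibre group. The differences were −0.01 ± 0.18, −0.36 ± 0.18 (adjusted p = 0.252) and −0.12 ± 0.18, with a 95% interval of −0.74 to 0.03 in CCF. Lum, lumican, another small leucine-rich proteoglycan, spread from −1.70 to 0.71 in the controls alone, and its differences of −0.55, 0.18 and 0.04 had a standard error of 0.45.

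Of the fibroblast surface genes, Pdgfra, the PDGF receptor of lung fibroblasts, was at 3.11, 3.16 and 2.95 in CCF, above all controls (2.43 to 2.94), a difference of 0.38 ± 0.14 (adjusted p = 0.136). Fap, a serine protease of activated fibroblasts, differed by 0.47 ± 0.20 in CCF (adjusted p = 0.181). In VCF these genes stood at 0.15 ± 0.14 and 0.10 ± 0.20, above 0 where most matrix genes stood below. Serpinh1, the chaperone that folds procollagen, differed by −0.16, −0.22 and −0.12 with a standard error of 0.24.

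**Figure D3:**
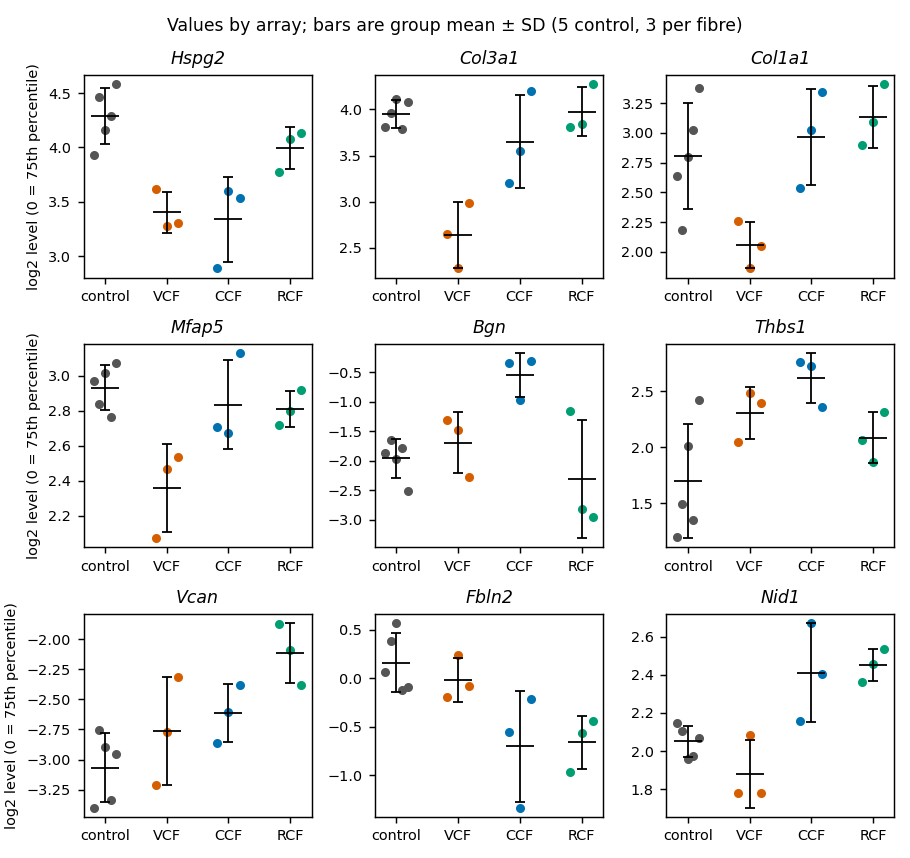
Log2 levels of 9 matrix genes on every array by group, relative to the 75th percentile of the array; bars are the group mean ± SD (n = 5 controls, n = 3 per fibre). All arrays of Hspg2 lie below the controls in VCF and CCF, those of Col3a1 and Mfap5 in VCF, Fbln2 in CCF and RCF, and Bgn above them in CCF, where the RCF arrays split.

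The fibres were then compared with each other, which sets the recycling steps side by side. CCF and RCF are both set against the same 3 VCF arrays, and these against the controls as well, so the comparisons share their arrays and do not support each other. Against VCF 32 of 40 members were higher in CCF, with a median difference of 0.39 (all genes 0.01), and 34 of 40 in RCF, with a median of 0.32 (all genes 0.06). By their median, genes at large leaned higher in RCF as well. In CCF against VCF 0 of 40 passed the threshold (0.222% of all genes), with 15 higher at an unadjusted p under 0.05 (7.56%) and 1 lower (6.21%). In RCF against VCF 0 of 40 passed (0.00981%), with 12 higher (6.17%) and 1 lower (2.88%).

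All 3 arrays stood above all 3 VCF arrays for 17 members in CCF (10.7% of all genes) and for 15 in RCF (10.5%), and below for 1 member in each (8.34% in CCF and 5% in RCF), which was Fbln2. Without the 3 dim arrays 11 members were higher in CCF (4.44% of all genes) and 8 in RCF (5.58%) at an unadjusted p under 0.05. Without VCF 2 these counts were 12 (7.06%) and 7 (5.27%). Within the first slide 10 of 40 members were lower in CCF than in VCF, against 50.4% of all genes, and 6 of 40 within the second, against 46.4%. RCF shares only the first slide with VCF, where 11 of 40 were lower, against 40.5% of all genes. The third slide, with RCF 2 and 3, holds no VCF array, and with the slide as a fixed block 12 members were higher (8.47% of all genes) and 0 were lower (3.81%), again at an unadjusted p under 0.05.

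Col3a1 differed from VCF by 1.01 ± 0.25 in CCF (adjusted p = 0.123) and 1.34 ± 0.25 in RCF (0.161). For Col1a1 the values were 0.91 ± 0.29 and 1.08 ± 0.29 (adjusted p = 0.197 and 0.302), for Col6a3 0.85 ± 0.24 and 0.83 ± 0.24 (0.161 and 0.343), and for Fbln5 0.54 ± 0.14 in both (0.13 and 0.288). The further Col6a3 probe turned the order, at −1.90 in CCF and −0.72 in VCF relative to control. Mfap4 was higher by 1.07 ± 0.26 in CCF (0.116) and by 0.32 ± 0.26 in RCF (0.78). With the slide as a random block, CCF against VCF had 5 members past the threshold, Col3a1, Col5a1, Col6a3, Fbln5 and Mfap4, and with the slide as a fixed block 2, Col3a1 and Col6a3. Over all genes both settings also called far more than the 68 genes (0.222%) of the main fit, with the counts given below under processing.

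Between RCF and CCF members went both ways, with a median of −0.02 (all genes 0.04). Here 0 of 40 members passed the threshold (0.00327% of all genes), 1 was higher (5.88%) and 3 were lower (3.38%) at an unadjusted p under 0.05. Bgn was lower in RCF than in CCF by 1.76 ± 0.44 with no overlap (adjusted p = 0.428), Mfap4 by 0.75 ± 0.26 (0.482) and Col6a2 by 0.63 ± 0.20 (0.47). Hspg2 was higher in RCF by 0.66 ± 0.22 with no overlap (adjusted p = 0.475). Of other members the 95% interval of Col1a1 against control ran from −0.41 to 0.73 in CCF and from −0.24 to 0.90 in RCF. Such an interval bounds the difference of this gene and is not the smallest difference that the test would call.

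Members varied less between arrays of a group than genes at large, with a median pooled SD of 0.279 against 0.376 over all genes. The members were not matched to genes of like level. All members but Col15a1, Vcan, Tnc and Thbs2 were above background on all 14 arrays, while the filter asked for only 3. Next to Col15a1 the widest were Tnc (0.77), Thbs2 (0.71) and Lum (0.66). For 16 members several probes passed the filter, which gives 19 further probes beside those used. These fell on the same side of control as the probe used in 11 of 19 cases in VCF, in 9 in CCF and in 11 in RCF. Among the 12 further probes that were above background on all 14 arrays the numbers were 7, 6 and 8. With the mean of a gene's probes in place of the brightest, 32 of 40 members lay below control in VCF.

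**Figure D4:**
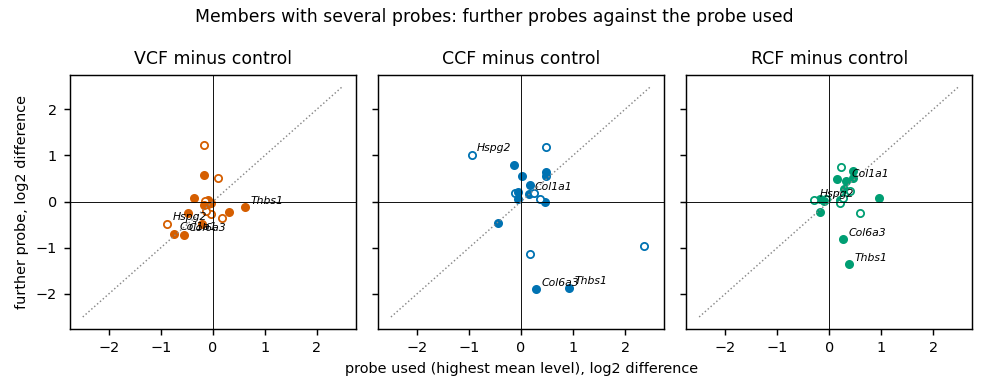
Difference from control of each of 19 further probes (vertical axis) against that of the probe used for the same gene (horizontal axis), in log2, for the 3 fibres; filled points were above background on all 14 arrays and the dotted line marks equal values. Col1a1 lies near the line, while Thbs1 and Col6a3 lie far below it in CCF and Hspg2 lies opposite in CCF.

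Other genes of the matrix were taken from 5 lists outside the 40 members (103 genes, 98 measured), in the same fit. Other collagens (17 measured) had 0 genes past the threshold in any fibre against control, with medians of −0.09 in VCF, 0.12 in CCF and −0.09 in RCF. At an unadjusted p under 0.05, 3 were lower and 0 higher in VCF, 3 lower and 2 higher in CCF, and 1 higher in RCF. The shares of all genes under the same rules are those given above for each fibre. In CCF 3.78% of all genes passed higher and 2.21% lower, and with lists this small 1 gene is near that share. Of 19 enzymes of collagen synthesis and cross-linking 1 rose in CCF, P4ha2, a prolyl 4-hydroxylase subunit, by 0.53 ± 0.12 (adjusted p = 0.0311), and in VCF 0 passed, with 6 lower and 1 higher at an unadjusted p under 0.05. Of 15 other laminins and basement membrane genes 1 rose in CCF, Lama3, a laminin chain of epithelial basement membranes, by 0.93 ± 0.17 (adjusted p = 0.0141). In VCF 2 of these were lower at an unadjusted p under 0.05.

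In 27 other elastic fibre and glycoprotein genes Efemp1 and Mfap3 rose in CCF by 0.52 ± 0.12 and 0.51 ± 0.12 (adjusted p = 0.031 and 0.0322) and Spon2 fell by 0.98 ± 0.24 (adjusted p = 0.0347). Of 20 genes of TGF-beta signalling and matrix response 1 rose in CCF, Skil, a repressor of SMAD signalling, by 0.55 ± 0.15 (adjusted p = 0.0476). In VCF and in RCF 0 genes of these 5 lists passed against control. In the mean of the 3 fibres Spon2, Efemp1 and Lama3 passed (adjusted p = 0.0315, 0.0318 and 0.0449), where 2.58% of all genes did. Spon2 had means of −0.58 in VCF, −0.69 in CCF and −0.57 in RCF against 0.29 in the controls. For Efemp1 these were 3.88, 4.11 and 4.15 against 3.59, and for Lama3 −0.60, 0.33 and 0.15 against −0.60. At an unadjusted p under 0.05 the elastic fibre and glycoprotein list had 3 higher and 4 lower in VCF and 5 higher and 1 lower in RCF, and the TGF-beta list 3 lower in VCF and 1 higher in RCF. The list medians in VCF were all below 0, between −0.16 and −0.09, against −0.17 for the 40 members.

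**Figure D5:**
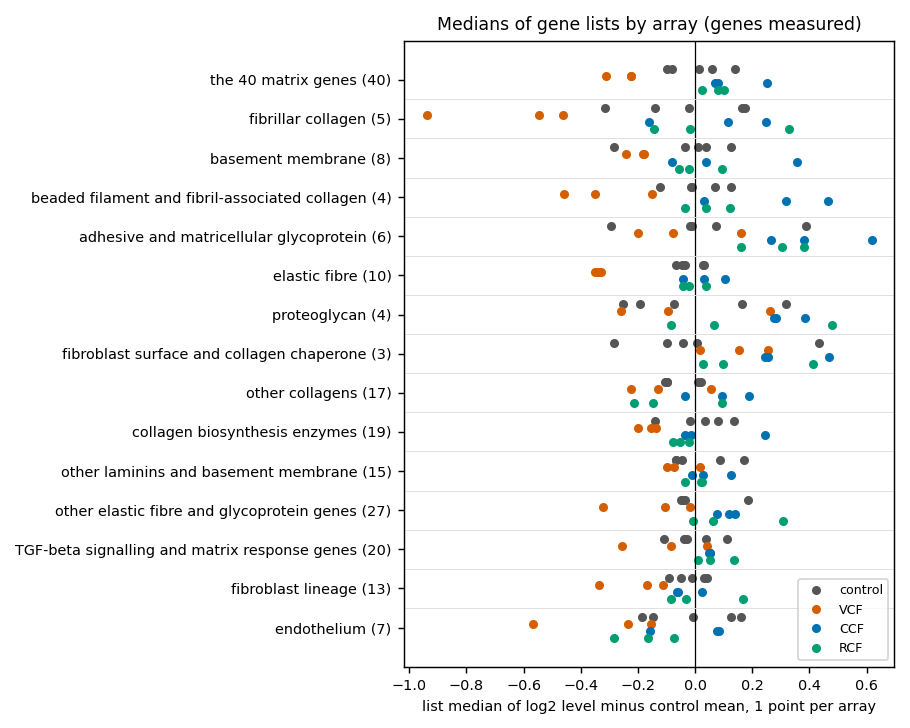
Median over each gene list of the log2 level minus the control mean, 1 point per array, for the 40 matrix genes, their 7 role groups, the 5 other matrix lists, and the fibroblast and endothelium markers. The VCF points stand below all other arrays for the 40 genes, for the fibrillar collagens, for the beaded-filament and fibril-associated collagens and for the elastic fibre genes. They do so for the fibroblast lineage markers as well.

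Marker lists of cell types moved with the groups in part. Fibroblast lineage markers (13 of 14 measured, Twist1 not above background) had a summed level, log2 of the sum of linear levels, from 7.86 to 8.06 in the controls and from 7.73 to 8.37 in VCF, and their medians in the VCF arrays were −0.17, −0.34 and −0.11 against −0.09 to 0.04 in the controls. Endothelial markers (7 of 7) summed to between 7.55 and 7.84 in the controls. The VCF range was 7.29 to 7.48, the CCF range 7.40 to 7.57 and the RCF range 7.26 to 7.37. Markers of cycling cells (6 of 6) summed to between 1.06 and 1.75 in the controls and between 0.207 and 0.482 in VCF, with CCF from 1.54 to 1.73 and RCF from 1.04 to 1.30. Macrophage markers (6 of 6) summed to between 6.51 and 6.80 in the controls and 6.84 and 7.69 in VCF, with CCF from 6.84 to 7.12 and RCF from 6.79 to 6.93. Of these, Chil3 had a mean of 6.83 in VCF against 6.14 in the controls, while Marco, Cd68 and Csf1r lay lower in VCF and higher in CCF and RCF than in the controls. The part of these cell types in the matrix values of VCF was not tested.

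For myofibroblasts and smooth muscle (7 of 7 markers) the VCF range of 5.0 to 5.46 lay within that of the controls, 4.78 to 6.10, and for pericytes (6 of 6) the ranges were 4.57 to 4.97 in the controls and 4.47 to 4.71 in VCF. Airway cartilage markers were measured for 5 of 11 genes only, with Acan, Col9a1, Col11a1, Matn1, Matn3 and Cnmd not above background. Lung epithelium (8 of 8) was strongly present in all arrays, between 9.53 and 11.3. Markers of mesothelium (5 of 5, 4.25 to 5.45), adipocytes (5 of 5, 2.08 to 5.71) and heart or skeletal muscle (6 of 6, 4.74 to 7.20) were present on all arrays, and the part of such tissue in these values was not tested.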

How the data were processed

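RNA of 14 lungs was measured on 14 arrays (1 colour, 62976 spots including 3671 control spots). The deposited intensity values are the processed signal of Feature Extraction 10.7.3.1, per the file headers, background-subtracted and not scaled between arrays. The mean signal was not used here, so the median signal entered the normexp alternative (offset 50). The value matrix deposited by the authors holds log2 values, each column equal to log2 of the processed signal minus 1 constant, with column medians from −0.52 to 0.30; direction and scale follow from the match, genes are not centred, and for these constants the sources used here give no origin.

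From log2 of the processed signal each array's 75th percentile over non-control spots was subtracted. Spots marked as outliers were left out, and probes well above background on at least 3 arrays were kept (37984 of 56605). Symbols came from RefSeq accessions (GRCm38.p6). The probe of highest mean stood for a gene, and 17290 of 30579 genes had a symbol. Probe positions are left out because the array design refers to an earlier build. Limma 3.58.1 (with R 4.3.3) was fitted to all 14 arrays in 4 groups without covariates, with moderated two-sided tests for 7 comparisons, each adjusted over all genes. The fit was also run on simulated arrays with independent noise and no slide effect. That run cannot speak to slide effects in these data.

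Per-array values are given for members past the threshold, for the 3 of smallest p in each fibre against control, and for 10 that stand for roles (Col1a1, Col1a2, Col3a1, Eln, Fn1, Col4a1, Col15a1, Dcn, Sparc, Postn); of the other lists, genes past the threshold are named. The members and lists were chosen with earlier results of these data known. The alternatives tried were scaling, background correction, filter, probe choice, slide, replicate block, array weights, the authors' values, and leaving out arrays. Same-numbered arrays of different groups were not treated as pairs.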

Additional observations from a re-analysis of the deposited data

How the results depend on the processing

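The member medians kept their sign in every alternative (single arrays left out apart) for VCF, CCF and RCF against control and for CCF and RCF against VCF. The exceptions were 1 of 12 for the mean of the fibres and 1 of 13 for RCF against CCF. Within the second slide the median was −0.33 in VCF and 0.050 in CCF. Each sets 1 array against control 3 alone, whose member median of 0.14 was the highest of the controls. In VCF 27 of 40 members lay below control within the first slide (48.8% of all genes), and 34 of 40 within the second (53.6%).

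In VCF 1 member passed with the filter on all 14 arrays, 1 with the slide as a fixed block, 1 with it as a random block and 4 with array weights, against 0. Over all genes these called 97, 35, 95 and 716, against 26. In CCF 3 passed with normexp and quantile scaling, 4 with the authors' values, 5 with the filter on all 14 arrays, 4 with the random slide block and 6 with array weights, against 1, and 0 passed without a filter and 0 with the mean of a gene's probes. Over all genes these CCF settings called 1382, 2507, 2700, 2953, 4894, 372 and 1387 genes, against 1832. In RCF 1 passed with either slide block and 4 with array weights (457, 468 and 3200 of all genes, against 47). For the mean of the fibres 2 passed with the authors' values, 2 with the random slide block and 6 with array weights, and 0 with normexp, quantile scaling, no filter, the mean of probes or without the dim arrays, against 1. Over all genes these called 1478, 2238 and 4663, and 573, 433, 49, 417 and 168, against 790. In CCF against VCF 2, 5 and 1 passed with the fixed slide block, the random one and array weights, in RCF against VCF 8 and in RCF against CCF 1 with array weights. Over all genes these called 563, 656 and 273 (against 68), 1262 (against 3) and 444 (against 1). The cause was not tested, beyond the number of genes tested under a filter.

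Hspg2 in CCF reversed to 0.031 with the mean of its probes. Its call was also lost without a filter (adjusted p = 0.0634), and over 14 fits that left out 1 array its difference ran from −1.08 to −0.72 (adjusted p 0.0235 to 0.0768), past the threshold in 11.

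With 1 array left out in turn the members called ran from 0 to 2 in CCF (0 without control 4, CCF 1 or CCF 2, and 2 without control 2, control 5 or RCF 1), from 0 to 1 in the mean of the fibres, and 0 in the other comparisons. The medians ran from −0.25 to −0.13 in VCF, 0.11 to 0.20 in CCF, 0.04 to 0.12 in RCF, −0.086 to 0.0043 in the mean of the fibres, 0.30 to 0.50 in CCF against VCF, 0.22 to 0.35 in RCF against VCF and −0.10 to 0.02 in RCF against CCF.

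With the replicate number as a block, which drops control 4 and 5, 0 members passed in CCF and 0 in the mean of the fibres, and over all genes 2 and 0 passed. Arrays with the same number correlated in their deviations above 0.1 in 12 of 18 pairs, and other arrays in 11 of 54. Arrays on the same slide did so in 17 of 25 pairs, and others in 6 of 47. Number and slide largely coincide, so these counts overlap. Arrays numbered 1 all lie on the first slide. Except in RCF, those numbered 2 lie on the first slide and those numbered 3 on the second. The numbers were not taken to pair the arrays, since no label says so and not every same-number pair passed 0.1. Hspg2 in CCF was at −0.85 with this block (adjusted p = 0.134). No other call of a member changed with it.

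The precision is limited by 3 arrays per fibre and by 3 dim arrays. Members above background on few arrays (Col15a1, Thbs2, Tnc) have little more than bounds.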

Other observations

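Among the marker lists, Plvap, of endothelial diaphragms, and Mki67, of cycling cells, fell in VCF by 1.14 ± 0.17 and 0.97 ± 0.15 (limma, adjusted p = 0.0462 and 0.0484), each below all controls in 3 of 3 arrays. Of the other endothelial markers, Tek (1.37 against 1.17) and Vwf (5.88 against 5.68) had higher means in VCF than in the controls. Pecam1, Cdh5, Kdr and Cldn5 had lower ones, as did every other cycling cell marker. In CCF Tek, an endothelial receptor, and Fgf10, a growth factor of lung mesenchyme, rose by 0.76 ± 0.19 and 0.71 ± 0.18 (adjusted p = 0.0413 and 0.0373). Other genes of the same lists had lower means in CCF than in the controls, among them Cdh5 (4.09 against 4.72), Kdr (3.33 against 3.91) and Npnt (−0.61 against 0.24). The pericyte marker Higd1b fell in CCF by 0.58 ± 0.13 (adjusted p = 0.0269). Of the other pericyte markers, Kcnj8 had a higher mean in CCF than in the controls (1.19 against 1.02). Cspg4, Abcc9, Rgs5 and Notch3 had lower ones.

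Col4a1 and Col4a2 start 21 bases apart on opposite strands of chromosome 8 in RefSeq (GRCm38.p6), at 11312826 and 11312805. Their differences from control in CCF were −0.11 and 0.34.

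The further probes of Col6a3 and Thbs1, both above background on 14 arrays, gave −1.90 and −1.87 in CCF, where the probes used gave 0.29 and 0.92. Chosen after their values were seen, these are the widest gaps in that comparison among the 12 further probes that were above background on all 14 arrays.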
